A study of Sorghum bicolor with 4 samples.

Results

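Abundant transcripts whose level hardly differed between booting, the milky stage and physiological maturity were described in the middle internode of the sweet sorghum stem (Sorghum bicolor, variety SSV84). The genes were chosen by their measured values. The unit was FPKM, fragments scaled to transcript length and to library size. A gene was a member when its FPKM was at least 100 in each of the 3 stages. Its highest stage value also had to be at most 1.2 times its lowest. Only rows with 1 gene ID ending in 00 were considered, which are 26729 of the 34458 rows of the table. Of these, 831 reached 100 FPKM in every stage and 155 of the 831 met the limit of 1.2. These 155 are called members below, and the remaining 676 are called the other abundant genes.

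All plants were of the same variety, were grown in an open field and carried no label of a treatment. The samples were total RNA of the middle internode, with 2 libraries labelled booting, 1 labelled milky stage and 1 labelled physiological maturity. Neither the age of the plants nor any pooling of plants is stated in the labels. The table holds 1 FPKM value per gene and stage, made by the authors, and no value labelled for a single library. How many libraries lie behind each stage value is not stated. No SD, no n and no p-value can therefore be given, and a ratio of 1.2 cannot be compared with the spread between libraries or plants. Sequencing depth is not given by the table, so no counting error is given either.

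Booting is the stage at which the flag leaf sheath swells around the unopened panicle. At the milky stage the grain fills, and at physiological maturity grain filling has ended. In sweet sorghum the stem internodes store sugar over this period while cell walls mature. Transcripts with a steady level are of use as internal references in such a series, since other genes are measured against them. FPKM is a relative unit: a gene's value depends on all other transcripts of the library, so a gene can only be steady relative to the scale chosen. In an extract of a whole internode, fewer cells of a type and less RNA per cell cannot be told apart.

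The files do not pair gene IDs with names or descriptions. The RefSeq gene table of the assembly Sorghum_bicolor_NCBIv3 matched 0 of the 155 member IDs as they are spelled, so each gene is given by its ID and no role is stated. For the same reason the tissue label could not be checked against marker genes. Positions are those of the deposited table, whose genome build the labels and headers do not name.

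The members lay mostly at the lower end of the abundant range. Their mean FPKM over the stages had a median of 165.6 and ran from 103.6 to 1194. Of the 155 members, 101 had a mean under 200 FPKM, 44 had 200 to 500, 8 had 500 to 1000 and 2 had over 1000. Of the 676 other abundant genes, 261 had a mean under 200 FPKM, 299 had 200 to 500, 74 had 500 to 1000 and 42 had over 1000. The share under 200 FPKM was thus 65.2% of members and 38.6% of the others. Part of this follows from the rule, since a gene with a value near 100 FPKM keeps a low mean only if its other values are low as well. The median of the members was 164.8 FPKM (booting), 164.7 (milky stage) and 168.9 (maturity). For the other abundant genes it was 263.4 FPKM (booting), 210.1 (milky stage) and 217.5 (maturity). The near-constant medians of the members follow from the rule that chose them and are given as a description.

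**Figure D1:**
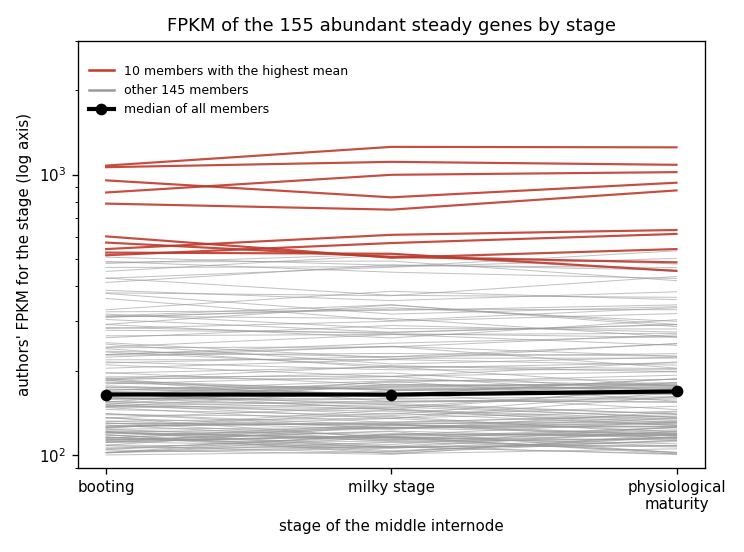
Each line is 1 of the 155 members, with the authors' FPKM on a log axis against the stage. Red lines are the 10 members with the highest mean, grey lines the other members, and the black line is the median of all members, at 164.8, 164.7 and 168.9 FPKM.

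Sobic.002G135200 (chromosome 2, 20168984 to 20171576) was the most abundant member, with 1076 FPKM (booting), 1255 (milky stage) and 1250 (maturity). Its booting value was the low one, and the later stages were nearly equal. Sobic.010G041600 (chromosome 10, 3225557 to 3227768) had 1062, 1110 and 1084 FPKM in the same order of stages, which is kept below, a ratio of highest to lowest of 1.04. Among the 10 most abundant members it was the only one with a ratio under 1.1. Sobic.007G018300 (chromosome 7, 1727418 to 1728959) had 863.5 FPKM (booting), 998.2 (milky stage) and 1020 (maturity). It was thus lowest at booting, as the most abundant member was.

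Sobic.002G243500 (chromosome 2, 63252126 to 63255947) had 953.8 FPKM (booting), 829.9 (milky stage) and 935.6 (maturity), with the milky stage lowest. Sobic.003G424500 (chromosome 3, 72854005 to 72857091) had 788.2, 750.2 and 878.3 FPKM, with maturity highest. Its locus in the table is shared with another row. The next 5 members by mean lay between 501.4 and 596.0 FPKM, so a gap separated them from the 5 above. Sobic.001G325700 (chromosome 1, 61256035 to 61267686, a shared locus) had 543.0, 610.2 and 634.9 FPKM, and Sobic.004G207700 (chromosome 4, 55792490 to 55795320) had 516.1, 570.5 and 614.7. Both were higher at each later stage. Sobic.010G042100 (chromosome 10, 3246849 to 3249453) had 572.7, 509.1 and 487.0 FPKM, and Sobic.007G022500 (chromosome 7, 2051109 to 2053084) had 527.5, 522.6 and 454.0. Both were lower at each later stage. Sobic.006G108400 (chromosome 6, 47785219 to 47789305) had 602.5, 505.8 and 543.0 FPKM, again lowest at the milky stage. The most abundant members therefore shared no single profile within the 1.2-fold limit.

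The 5 members with the smallest ratio were all of moderate abundance. Sobic.003G188500 (chromosome 3, 50801525 to 50807843, a shared locus) had 174.8 FPKM (booting), 172.7 (milky stage) and 175.2 (maturity), a ratio of 1.01. Sobic.003G012700 (chromosome 3, 1108310 to 1110513) had 158.4, 159.4 and 161.8 FPKM. Sobic.009G050700 (chromosome 9, 5036658 to 5041654) had 227.6, 230.7 and 225.8 FPKM. The last of these was highest at the milky stage and the others at maturity, each by a few FPKM. Sobic.004G356900 (chromosome 4, 68390332 to 68393769) had 124.1, 125.7 and 126.9 FPKM, and Sobic.003G323600 (chromosome 3, 65000638 to 65007433, a shared locus) had 127.4, 129.8 and 130.8. The ratios of these 5 genes ran from 1.01 to 1.03.

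The ratios of the 831 abundant genes formed 1 continuous distribution in which the limit of 1.2 marked no gap. Of the members, 14 had a ratio up to 1.05, 41 a ratio from 1.05 to 1.1, 43 from 1.1 to 1.15 and 57 from 1.15 to 1.2. The next interval, 1.2 to 1.25, held 66 genes. A further 255 lay between 1.25 and 1.5, and 129 of the 831 (15.5%) had a ratio over 2. Just inside the limit, Sobic.002G341800 had 151.9, 135.4 and 162.3 FPKM, Sobic.003G226500 had 362.0, 302.3 and 335.6, and Sobic.010G057100 had 313.7, 343.9 and 287.5. Just outside it, Sobic.010G058500 had 363.5, 327.4 and 302.4 FPKM, Sobic.006G073200 had 121.4, 100.9 and 105.4, and Sobic.004G099500 had 362.4, 311.9 and 300.8. The 3 genes outside were all highest at booting, while those inside were highest at maturity, booting and the milky stage in turn. At the limit of 100 FPKM, Sobic.010G205300 was a member with 100.4, 103.0 and 116.6 FPKM, and Sobic.007G052900 was not, with 117.5, 99.1 and 104.1.

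**Figure D2:**
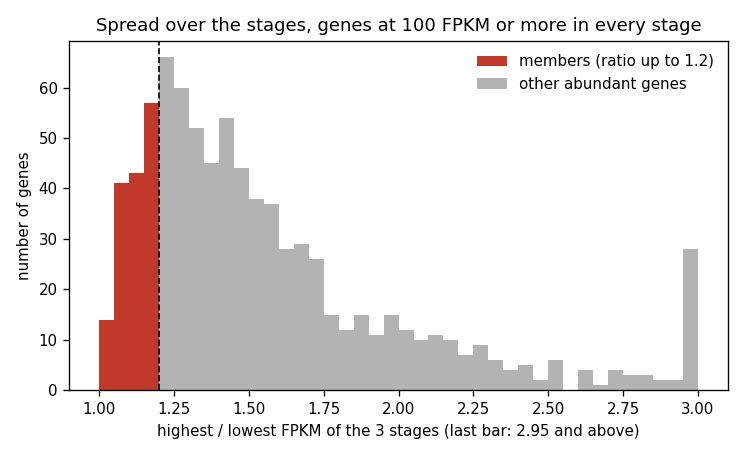
The number of genes (vertical axis) is plotted against the ratio of highest to lowest FPKM over the 3 stages for the 831 genes at 100 FPKM or more in every stage, with the members in red and the limit of 1.2 dashed. The counts pass the limit without a gap, with 57 genes just inside it and 66 in the next bar.

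On the deposited values, steady genes were about as frequent among abundant genes as among all expressed ones. Of the 13347 genes with at least 1 FPKM in every stage, 2313 (17.3%) had a ratio of at most 1.2, and among the 831 abundant genes the 155 members make up 18.7%. For the same sets of genes, the median of ratios gave 17.4% and 17.7%, equal sums of FPKM over the stages gave 15.4% and 22.5%, centring each stage on the abundant genes gave 14.8% and 23.2%, and quantile normalization gave 18.0% and 24.3%. The centring was fitted to the 831 abundant genes. A higher share among them, here and by level below, is favoured by that construction. The share varied with the level of the lowest stage. It was 11.3% from 1 to 10 FPKM (671 of 5963 genes), 22.0% from 10 to 30 (897 of 4075) and 23.8% from 30 to 100 (590 of 2478). In the abundant range it was 21.5% from 100 to 200 FPKM (103 of 479 genes), 16.5% from 200 to 500 (44 of 267) and 9.41% from 500 upward (8 of 85). The most abundant genes thus held the smallest share of steady ones, on the scale of the deposited values. That share moved with the scale: from 500 FPKM upward it was 10.6% with each stage divided by its median ratio to the mean of the stages, 16.5% with the stages brought to equal summed FPKM, 18.8% with each stage centred on the abundant genes and 22.4% after quantile normalization. From 1 to 10 FPKM the share was 11.2%, 8.96%, 8.52% and 10.8% in the same order of scalings. With equal sums, centring and quantile normalization the smallest share thus lay from 1 to 10 FPKM.

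**Figure D3:**
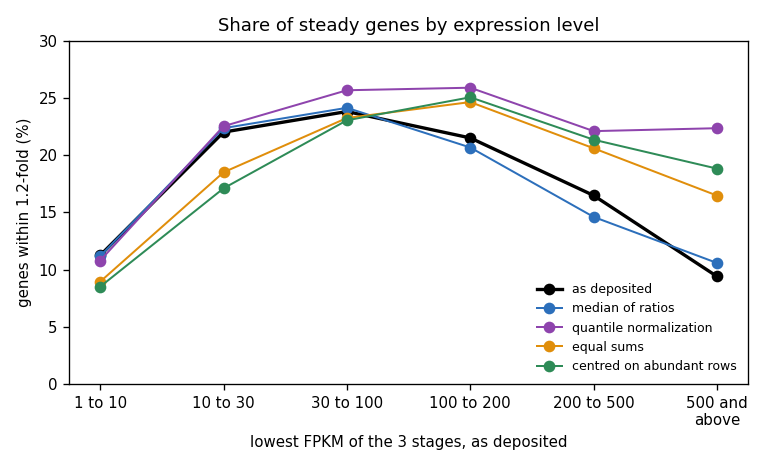
The share of genes within 1.2-fold over the stages (vertical axis, %) is plotted against the lowest FPKM of the 3 stages, with 1 line per scaling. On the deposited values the share is highest from 30 to 100 FPKM, at 23.8%, and is 9.41% from 500 FPKM upward, where the 5 scalings lie farthest apart.

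Within the limit, the members peaked at each of the stages. The highest value was at booting in 57 members, at the milky stage in 40 and at maturity in 58. These are 36.8%, 25.8% and 37.4% of the members, close to the 37.2%, 26.9% and 35.9% of all genes with 1 FPKM or more in every stage. The lowest was at booting in 60, at the milky stage in 51 and at maturity in 44. These are 38.7%, 32.9% and 28.4% of the members, close to the 36.6%, 34.0% and 29.5% of all such genes. All 6 orders of the 3 stages occurred, from 17 members with maturity lowest and the milky stage highest to 37 that were higher at each later stage. Another 27 were lower at each later stage. From booting to the milky stage 77 members were higher and 78 lower, with a median log2 ratio of −0.01. From the milky stage to maturity 88 were higher and 67 lower, with a median of 0.01. The share higher in the step after booting was 49.7% of members and 48.0% of all such genes. In the step to maturity it was 56.8% and 55.1%, so the members were close to all such genes in both.

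The other abundant genes were spread unevenly over these orders. Booting was the highest stage in 438 of 676 (64.8%), against 37.2% of all genes with 1 FPKM or more in every stage. From booting to the milky stage 526 of the 676 were lower, and the median log2 ratio was −0.38. Over all 13347 genes with 1 FPKM or more in every stage the median was −0.03. From the milky stage to maturity the other abundant genes had a median of 0.03. The members therefore differed from most of the other abundant genes in the step after booting, which the rule for members also used, so this contrast is a description.

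**Figure D4:**
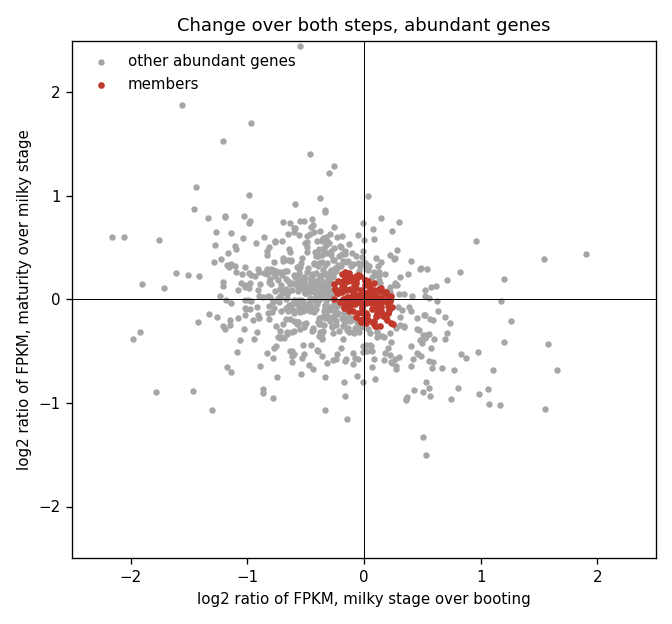
Each point is 1 abundant gene, with the log2 ratio of FPKM from booting to the milky stage on the horizontal axis and from the milky stage to maturity on the vertical axis; 3 genes lie outside the axes. Members (red) surround the origin because the rule confines them there, and the other abundant genes (grey) lie mostly to the left of it, with a median of −0.38 on the horizontal axis.

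The summed FPKM over all rows of the table was 793091 (booting), 688481 (milky stage) and 682654 (maturity). The members together summed to 35428, 35511 and 35742 FPKM in these stages. With their own sum nearly fixed by the rule, they made up 4.47% (booting), 5.16% (milky stage) and 5.24% (maturity) of it. The other abundant genes made up 42.4%, 36.7% and 35.1%. A constant FPKM was thus a growing share of the total.

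In the ranks this follows too: genes held by the rule at a near-constant FPKM move up where most other abundant genes are lower, so the places are a description. Ranked by FPKM among all 34458 rows, the median member stood at place 786 (booting), 648 (milky stage) and 649 (maturity). From booting to the milky stage 153 of 155 members moved up and 2 moved down, by a median of 120 places upward. From the milky stage to maturity 71 moved up and 84 moved down. Sobic.002G135200 moved from place 64 at booting to 32 and then 27. Sobic.010G041600, at nearly constant FPKM, moved from place 67 to 39 and then 35. Of the other abundant genes, 254 moved up and 421 moved down in the step after booting.

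Which genes counted as steady depended on the scale. When each stage was rescaled by the median of ratios over all genes, 148 genes met the rule, of which 127 were members (81.9% of the members and 85.8% of the 148). Its divisors were 0.986 (booting), 0.983 (milky stage) and 1.036 (maturity). This scaling thus changed the deposited values little, and a large overlap follows from that. When the stages were brought to equal sums of FPKM, 194 genes met it and 69 of them were members (44.5% of the members and 35.6% of the 194). When each stage was centred on the 831 abundant genes, 201 met it, 58 of them members (37.4% and 28.9%). Quantile normalization gave 207 genes with 65 members among them (41.9% and 31.4%). Equal sums and centring on the abundant genes were chosen after the values were seen.

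With equal sums, 146 of the 155 members were higher at the milky stage than at booting, with a median log2 ratio of 0.20. That scaling also moved the median over all genes with 1 FPKM or more, from −0.03 to 0.18. A common factor per stage leaves the distance between groups of genes as it was, so the members stayed close to all such genes and above the other abundant genes (median −0.18). Centring on the abundant genes gave medians of 0.26 for the members, −0.12 for the other abundant genes and 0.24 over all such genes. Quantile normalization, which applies no common factor, gave 0.25 for the members, −0.10 for the other abundant genes and 0.01 over all such genes. After it the members were thus not close to all such genes. On the deposited scale and after rescaling by the median of ratios, the members' median was −0.01 and 0.00. On each of these scales the other abundant genes lay below the members in the step after booting. Which scale reflects transcripts per cell was not tested, since the table holds no external standard. With equal sums, Sobic.002G135200 had 979.1 at booting and 1321 at maturity on that scale, a ratio of 1.35. Sobic.010G042100, lower at each later stage as deposited, had 520.9, 533.4 and 514.6, a ratio of 1.04.

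**Figure D5:**
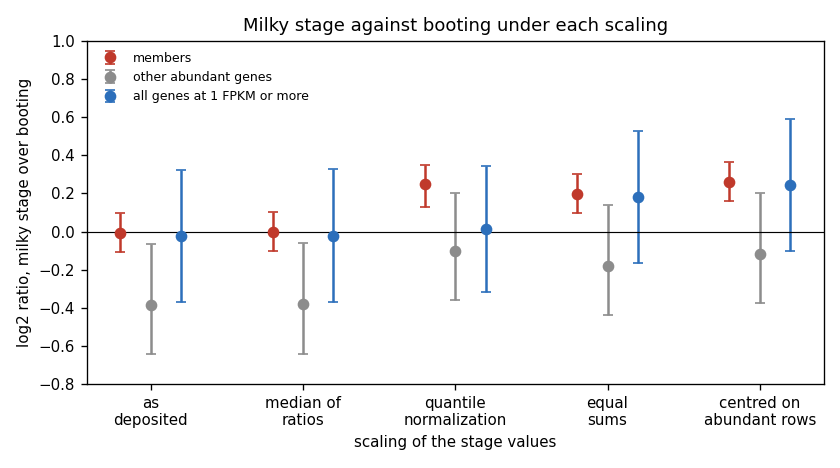
Points are the median log2 ratio of the milky stage over booting and bars run from the lower to the upper quartile over genes, for the members (red), the other abundant genes (grey) and all genes with 1 FPKM or more in every stage (blue), under the 5 scalings on the horizontal axis. The members' median is −0.01 as deposited and 0.26 when the abundant genes are centred, and lies above that of the other abundant genes under each scaling. Every rescaling but quantile normalization applies a common factor per stage, which leaves the distance between the groups unchanged.

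A set of 42 members met the rule under all 5 scalings, the deposited values included. Their mean FPKM ran from 108.5 to 550.5, with a median of 153.5, and they lay on 8 of the 10 chromosomes. On the deposited values 39 of the 42 were highest at booting and the remaining 3 at maturity. This follows from the construction, since 3 of the 4 other scalings lower booting relative to both later stages in this range. The genes named next were picked from the 42 after their values were seen. Sobic.006G108400, given above, was the most abundant of them. Sobic.001G412800 (chromosome 1, 69516017 to 69518411) was next, with 508.2 FPKM (booting), 475.2 (milky stage) and 466.7 (maturity). The gene with the smallest ratio in its least favourable scaling was Sobic.002G199100 (chromosome 2, 58875359 to 58879640), with 116.2, 106.9 and 108.5 FPKM. Its ratio was 1.09 as deposited and at most 1.13 under any of the 5 scalings. Sobic.001G130400 (chromosome 1, 10243298 to 10247157) had 215.3, 201.8 and 201.9 FPKM and also reached at most 1.13. Sobic.003G188500, the steadiest gene on the deposited values, was among the 42, while the remaining 4 of the 5 smallest ratios were not.

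The members were spread over all 10 chromosomes. Chromosome 1 held 35 of them, chromosomes 3 and 9 held 21 each, chromosome 4 held 19, chromosome 10 held 17, chromosome 2 held 16 and chromosome 7 held 12. Chromosome 6 held 8, chromosome 5 held 4 and chromosome 8 held 2. As a share of the abundant genes of the chromosome, members ran from 6.06% on chromosome 8 (2 of 33) to 21.8% on chromosome 10 (17 of 78). On chromosome 5, which had 19 abundant genes, the share was 21.1%, near the 18.7% over all chromosomes. Abundant genes were 3.21% of the genes with 1 FPKM or more in every stage on chromosome 5 and 5.05% on chromosome 8. The median ratio of all abundant genes on chromosome 8 was 1.49, below the highest, that of chromosome 4, and above the lowest, 1.35 on chromosome 5. With 33 genes, the low share on chromosome 8 rests on few genes.

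Of the members, 82.6% lay in the outer 20% of a chromosome at either end, against 84.0% of the other abundant genes and 79.1% of all genes with 1 FPKM or more in every stage. These shares were close to each other. Among the genes at 1 FPKM or more in every stage, ordered by position, 2 pairs of members were adjacent. Members were thus 1.29% of the nearest neighbours of members, near their share of 1.16% of all these genes. Abundant genes of either kind were 3.55% of the neighbours of members (11 of 310) and 6.15% of those of the other abundant genes (83 of 1350). Over all genes at this level 831 of 13347 were abundant, a share near the latter. The lower share beside members rests on 11 genes. Sobic.010G205200 and Sobic.010G205300 lay 311 bp apart on chromosome 10. The former had 387.2, 355.9 and 382.5 FPKM and the latter, with the values given above, was less abundant in every stage and highest at maturity. The other pair, Sobic.009G137200 (318.6, 282.9 and 282.0 FPKM) and Sobic.009G137700 (108.8, 127.4 and 130.0 FPKM), lay 56447 bp apart on chromosome 9 and went in opposite directions after booting. Of the 310 nearest neighbours of members, 18.1% were within 1.2-fold, against 17.0% of the 1350 neighbours of the other abundant genes and 17.3% of all genes at this level.

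The loci of the members had a median length of 3806 bp in the table, introns included, against 3434 bp for the other abundant genes and 4485 bp for all genes with 1 FPKM or more in every stage. Loci under 2 kb were found for 12 members (7.74%), against 15.7% of the other abundant genes and 10.9% of all genes with 1 FPKM or more in every stage. Among genes with at least 200 FPKM in every stage the order was the opposite, with a median of 2960 bp for 52 members and 3172 bp for 300 other abundant genes. When the abundant genes were split into 5 equal groups by length, members were 15.0% of the group with the shortest loci (316 to 2246 bp) and 22.3% of the group at 3962 to 5556 bp. Abundance moved with length, since the median of the mean FPKM was 282.8 in the former and 184.0 in the latter, and its part in the difference was not tested. For 24 of the 155 members the table gives the same locus to another row as well, so the length is not that of the gene alone. The share of such loci was 15.5% for members and 13.8% for the other abundant genes. Without them the median length was 3438 bp for members and 3174 bp for the other abundant genes. For all genes with 1 FPKM or more in every stage it was 4062.5 bp.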

How the data were processed

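The deposited table gives FPKM, 1 value per row and stage, made by the authors and named per the file headers; the way libraries were combined is not stated. Per the submitters' processing notes, HISAT2 2.0.5, Bowtie2 2.2.9, cutadapt 1.8.1 and Cuffdiff were used, with no role stated; libraries came from a stranded total RNA kit per the labels' protocols. Whether counting used strand is not stated, so overlapping genes may share reads, as may near-identical copies.

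Members were found by the 2 limits on the deposited FPKM. The members and lists were chosen with earlier results of these data known. No test was made, as the rule uses all stage values and no value is replicated. Ratios used no pseudocount. Levels between genes are per transcript length, as FPKM is.

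The rule for named genes took the 10 highest means, the 5 smallest ratios and 3 genes on each side of the ratio limit. It capped genes without a description at 4; this cap was dropped, and 1 gene named on each side of the 100 FPKM limit, after the values were seen. The 21 gene lists set out by description found 0 rows, and no protein or promoter sequence was at hand, so these parts are not reported.

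Rescaling used the median of ratios to the geometric mean over rows above 0 in every stage, quantile normalization, division by summed FPKM, or the median of ratios over abundant genes. The code was tested on simulated data. Python 3.11.15, numpy 2.4.6, pandas 2.3.3 and matplotlib 3.10.9 were used.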

Additional observations from a re-analysis of the deposited data

How the results depend on the processing

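The count of 155 members followed the limits set. It was 55 at a ratio of at most 1.1, 476 at 1.5, 384 from 50 FPKM and 52 from 200 FPKM. It stayed within 1.5 times under the other alternatives: a mean of at least 100 FPKM (170), FPKM + 1 (155), FPKM + 5 (159), all rows with 1 ID (159) and the 4 scalings (148 to 207). Of the members, 81.9% were kept with the median of ratios, which changed the deposited values little, and 37.4% to 44.5% with the other scalings.

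The direction within members depended on the scaling. Members higher at the milky stage than at booting numbered 77 as deposited, 153 after quantile normalization, 146 with equal sums and 155 when centred on abundant genes. For maturity over booting the count was 81 as deposited, 53 with the median of ratios, 146 after quantile normalization, 143 with equal sums and 149 when centred. For maturity over the milky stage it was 88 as deposited and 48 with the median of ratios. Of all genes with 1 FPKM or more in every stage, 48.0% were higher at the milky stage than at booting as deposited. That share was 51.2% after quantile normalization, 64.0% with equal sums and 68.4% when centred. For maturity over booting the share of all such genes was 51.3% as deposited and 46.3% with the median of ratios. It was 48.4% after quantile normalization, 66.8% with equal sums and 67.9% when centred. For maturity over the milky stage it was 55.1% as deposited and 47.5% with the median of ratios, where the members had 31.0%. Members differ by at most 1.2-fold between stages, so a shift of the scale between stages can decide their counts. The divisors for booting and the milky stage were 1.119 and 0.929 when centred, and 1.099 and 0.954 with equal sums. The centring pair lies more than 1.2-fold apart, so all 155 members had to be higher at the milky stage. That count thus follows from the scaling.

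The median locus length of members, 3806 bp, was 3950 bp at a ratio of at most 1.1 and 2960 bp from 200 FPKM. At 200 FPKM the other abundant genes had 3172 bp, so the longer loci of members were not seen there.

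No paired analysis was possible because the table holds 1 column per stage. For that reason the alternatives without booting replicate 1 or 2 were not run, nor were those on gene lists, protein lengths and promoter motifs, for which no annotation was used here.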

Other observations

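Rows outside the rule also met both limits. Among rows at 100 FPKM or more in every stage, 4 of 30 with 1 ID not ending in 00, 20 of 94 with merged IDs and 3 of 9 without an ID were within 1.2-fold. Beside them stand the 155 of 831 (18.7%) with 1 ID ending in 00. The share with merged IDs was near this one, while the first rests on 30 rows and the third on 9. The rows named here were chosen after their values were seen. Sobic.003G071901 (chromosome 3, 6108595 to 6110604) had 4207 FPKM (booting), 4049 (milky stage) and 3740 (maturity). An unannotated locus on chromosome 9 (1187754 to 1188700) had 2457, 2212 and 2272 FPKM. Both exceeded Sobic.002G135200, the most abundant member, in every stage, and both were highest at booting.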
